A study of Homo sapiens with 24 samples.

Results

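The response to TGFβ was compared between 2 human hepatocellular carcinoma (HCC) cell lines, PLC/PRF/5 and SNU-449, on 12 of the 24 one-colour gene expression arrays of the series. For each gene, the TGFβ change in PLC/PRF/5 (log2 level with TGFβ minus log2 level without) was subtracted from the TGFβ change in SNU-449. A positive value of this difference between the lines means that the gene moved upwards in SNU-449 relative to PLC/PRF/5. Genes that changed alike in both lines were identified from the same fits. Each line had 3 untreated control cultures and 3 cultures given TGFβ1 at 1 ng/mL for 16 h, after serum starvation overnight in all groups. The other 12 arrays, of cells given galunisertib at 10 µM alone or together with TGFβ, entered the fit for the estimate of the spread. Galunisertib is a small-molecule inhibitor of the TGFβ type I receptor kinase. Each line is 1 established line, so the comparison is between these 2 lines and not between classes of tumors.

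TGFβ binds a pair of receptor kinases, which phosphorylate SMAD2 and SMAD3. These join SMAD4 and bind DNA with other factors, and among the genes they induce are inhibitors of the pathway itself, such as *SMAD7*, *SKIL* and *PMEPA1*. In epithelial cells TGFβ can also induce transcription factors of the epithelial-mesenchymal transition (EMT), among them *SNAI1*, and it can slow growth. In hepatocytes and liver tumors both kinds of response are known.

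Levels are log2 values of the intensity of a probe relative to the 75th percentile of its array, with values below a floor of -4.13 raised to it. The 75th percentile lay between 145 and 262 intensity units on the 12 arrays and was lowest on PLC/PRF/5 control replicate 1. The share of probes well above background ranged from 42.7% to 49.6%. With 3 arrays a group, precision is limited. The labels of the lines were set beside 26 of 30 listed hepatocyte genes, those well above background on all arrays of at least 1 group. Of these, 24 were well above background on all 3 control arrays of PLC/PRF/5 and 11 on all 3 of SNU-449, where 12, among them albumin (*ALB*) and apolipoprotein B (*APOB*), were not above background on any control array. A gene that only 1 line expresses passed through that line, so the counts are no independent test of the labels. Markers of leukocytes and endothelium were tested for 4 of 10 genes. With the limits given below, limma called 0 of the 4 in either line or between the lines (2, 1 and 1 at an unadjusted p below 0.05). Within the lines 0 were also called by an ordinary test of each gene on its own. This ordinary test is not the random-variance test of the methods. Each slide held 1 replicate of every group, with control arrays in its first row and TGFβ arrays in its second, so the row of the slide and TGFβ cannot be told apart within a line. An offset of the row that is the same for both lines is removed by the subtraction.

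Calls within a line also varied with the position of the spots on the array. Genes whose spots all lay in the first or last 10 rows of the array were 843 of 17902 (4.71%). In SNU-449, 6.29% of these outer genes were called as changed by TGFβ, against 2.33% of the others, and in PLC/PRF/5 2.49% against 0.909%. With the receptor inhibited by galunisertib, adding TGFβ gave calls for 9.02% of the outer genes and 0.662% of the others in SNU-449, and for 2.97% and 0.0703% in PLC/PRF/5. For the difference between the lines the shares were 2.25% and 2.29%. The calls within a line were therefore counted with and without the outer genes.

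**Figure D1:**
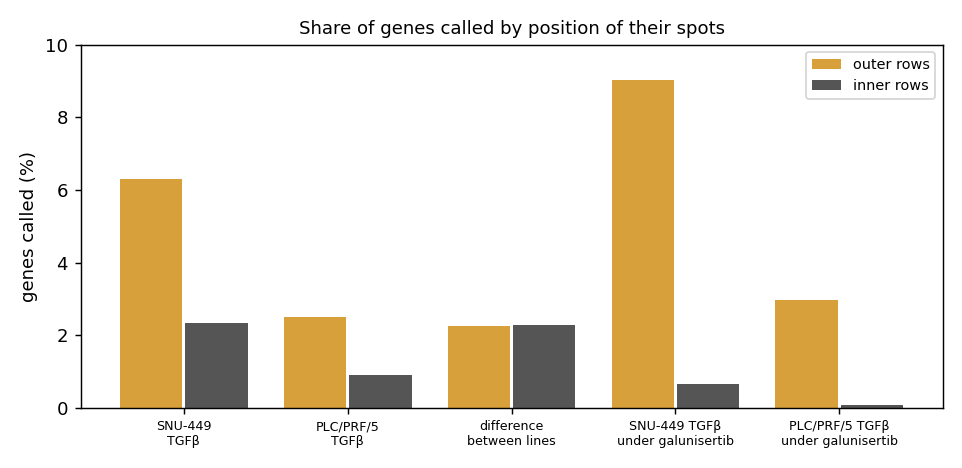
Share of genes called (vertical axis, percent) in 5 comparisons (horizontal axis), for 843 genes with all spots in the outer rows of the array and for 17059 others. Outer genes were called more often within each line, with and without galunisertib, and at 2.25% against 2.29% for the difference between the lines.

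The proximal promoters of 4 genes on which the results turn are shown, because the genes stand for the patterns described here: *SKIL*, higher with TGFβ in both lines and called in PLC/PRF/5, *SPP1*, which rose in PLC/PRF/5, *HLF*, which fell in SNU-449, and *FURIN*, which rose alike in both. The 250 bases before the RefSeq start are printed 5′ to 3′ (assembly GRCh38.p14, all on the plus strand), at chr3:170357465-170357714, chr4:87975464-87975713, chr17:55264710-55264959 and chr15:90871290-90871539. For *HLF* and *FURIN*, which have 2 and 4 listed starts, the first listed was used. Capitals mark the letters CAGACA (or its reverse complement TGTCTG), GTCTAGAC and GGCGCC, all of which SMAD proteins are known to bind.
SKIL: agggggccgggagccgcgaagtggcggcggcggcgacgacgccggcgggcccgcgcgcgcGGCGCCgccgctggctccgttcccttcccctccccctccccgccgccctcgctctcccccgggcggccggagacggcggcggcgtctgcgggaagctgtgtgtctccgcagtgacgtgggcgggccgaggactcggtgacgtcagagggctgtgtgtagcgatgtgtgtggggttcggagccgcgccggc
SPP1: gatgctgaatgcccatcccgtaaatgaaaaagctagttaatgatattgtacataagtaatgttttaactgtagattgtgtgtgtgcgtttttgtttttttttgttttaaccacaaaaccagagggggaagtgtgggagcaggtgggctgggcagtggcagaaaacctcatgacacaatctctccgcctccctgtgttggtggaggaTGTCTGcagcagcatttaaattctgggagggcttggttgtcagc
HLF: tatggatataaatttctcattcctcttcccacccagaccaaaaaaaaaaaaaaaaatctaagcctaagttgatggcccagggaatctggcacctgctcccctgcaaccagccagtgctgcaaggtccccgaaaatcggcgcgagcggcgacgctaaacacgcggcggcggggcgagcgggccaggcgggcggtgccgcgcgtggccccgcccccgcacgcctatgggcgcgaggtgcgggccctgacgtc
FURIN: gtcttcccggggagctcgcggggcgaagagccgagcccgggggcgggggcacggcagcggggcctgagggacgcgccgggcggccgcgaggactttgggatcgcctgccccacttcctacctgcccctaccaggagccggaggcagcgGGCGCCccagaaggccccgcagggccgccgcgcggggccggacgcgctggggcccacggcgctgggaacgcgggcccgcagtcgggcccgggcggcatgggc

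The *SPP1* window held CAGACA once, on the opposite strand, and the *SKIL* and *FURIN* windows held GGCGCC once each. The *HLF* window held none of the 3. On both strands, CAGACA was in 13.6%, GTCTAGAC in 0.182% and GGCGCC in 16.4% of 35116 RefSeq promoters of this length. Of 229 genes with a called difference between the lines and measured in both, 164 had a promoter in the table, and CAGACA was in 11.6% of these, against 9.95% of the 10341 promoters of all genes measured in both lines. GGCGCC was in 18.3% against 25.5%. Of the 36 genes called in both lines in the same direction, described below, 27 had a promoter, and 29.6% held GGCGCC. These are counts of letters and say nothing about binding.

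The first question was how many genes responded to TGFβ differently in the 2 lines. A gene was called with a fold above 2 and an unadjusted P below 0.001 in limma, and counts at a Benjamini-Hochberg adjusted p below 0.05 with the same fold are given beside. Of 17902 genes tested, 410 (2.29%) were called for the difference between the lines, 186 (1.04%) in the direction of SNU-449 and 224 (1.25%) in that of PLC/PRF/5, and 462 (2.58%) passed by the adjusted p. The difference had 1 sign on all 3 slides for all 410, but these are the arrays that gave the calls, so this adds no separate evidence. Its median over all genes was 0.05. TGFβ against control called 450 genes (2.51%) in SNU-449, 271 higher (1.51%) and 179 lower (1%), and 176 (0.983%) in PLC/PRF/5, 127 higher (0.709%) and 49 lower (0.274%). Without the outer genes these counts were 391 for the difference, 398 for SNU-449 and 155 for PLC/PRF/5. RNA from whole cultures was measured, so a change in the share of cells that express a gene and a change in RNA per cell cannot be told apart.

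A gene was taken as measured in a line when its probe was well above background on all 3 control or all 3 TGFβ arrays of that line. In both lines 14630 genes were measured, of which 229 (1.57%) had a called difference, 86 towards SNU-449 and 143 towards PLC/PRF/5. Among these 229 genes, 115 were called for TGFβ in SNU-449 and not in PLC/PRF/5, 36 in PLC/PRF/5 and not in SNU-449, 4 in both with opposite directions, 2 in both with the same direction and 72 in neither line on its own. The estimated changes had opposite signs in the lines for 159 of the 229. Choosing genes by a large difference favours opposite signs, and no share over all 14630 genes is given here to compare. The median size of the PLC/PRF/5 change over the 229 was 0.46, under the fold limit. The 159 are therefore not a count of reversed responses, and opposite directions were called for 4 genes only. A further 133 of the 410 genes were measured in SNU-449 alone and 48 in PLC/PRF/5 alone. For these genes the value is in the main the change in the line that expressed them, and what the other line would show could not be measured.

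**Figure D2:**
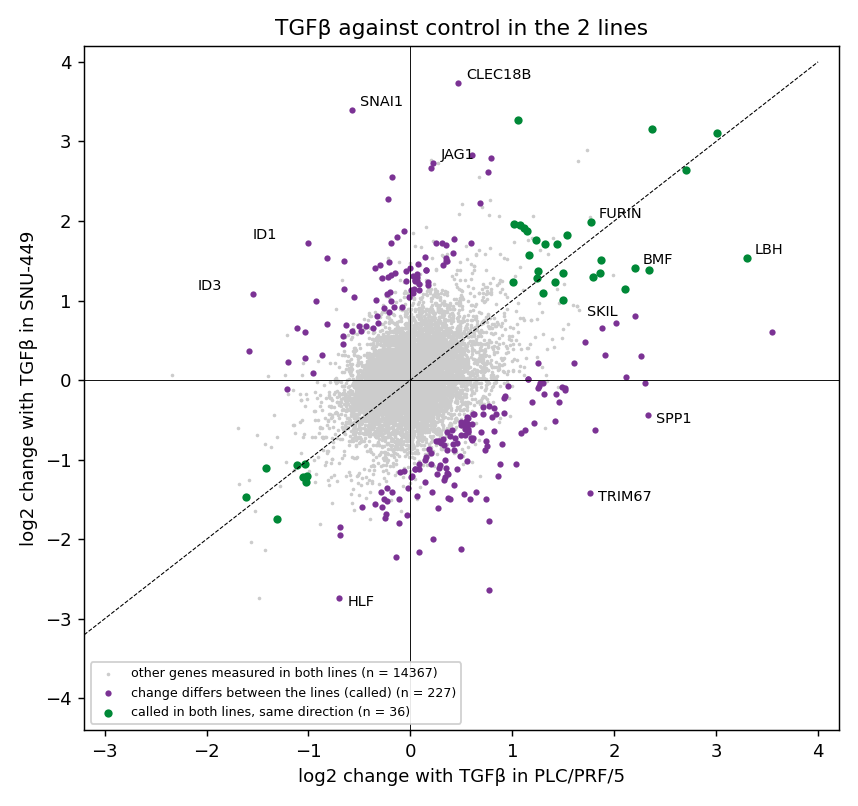
Log2 change with TGFβ in PLC/PRF/5 (horizontal axis) and SNU-449 (vertical axis) for 14630 genes measured in both lines; the dashed line marks equal changes. The 227 genes with a called difference that are not among the 36 called in both lines lie off the dashed line, *SNAI1*, *CLEC18B* and *JAG1* above it and *SPP1*, *TRIM67* and *HLF* below, and the 36 genes called in both lines in the same direction include *FURIN*, *BMF* and *LBH*.

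*SNAI1*, which encodes an EMT transcription factor that represses *CDH1*, had the largest difference between the lines among genes measured in both. In SNU-449 its log2 level was -1.63, -1.85 and -1.81 in the 3 control cultures and 1.59, 1.66 and 1.67 with TGFβ, a rise of 3.40 (10.6-fold, adjusted p = 2.4e-14). Its PLC/PRF/5 level was -0.64, -0.79 and -0.60 without and -1.24, -1.19 and -1.32 with TGFβ, a log2 change of -0.57 that did not reach the fold limit (adjusted p = 0.00069). The groups did not overlap in either line and the TGFβ arrays were on opposite sides of the controls. The difference between the lines was 3.97 (standard error 0.14, adjusted p = 9.9e-13). With galunisertib present, the log2 change of *SNAI1* on adding TGFβ was 0.14 for SNU-449 and -0.05 for PLC/PRF/5 (adjusted p = 0.46 and 0.85).

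*SPP1*, which encodes the secreted phosphoprotein osteopontin, a ligand of integrins and CD44, moved the other way. Its log2 level in PLC/PRF/5 was -2.26, -2.13 and -2.40 in control cells and 0.38, -0.17 and 0.00 with TGFβ, a rise of 2.33 (5.03-fold, adjusted p = 2.4e-09). In SNU-449 control cells it was already higher, at 0.55, 0.90 and 0.82, and it was 0.12, 0.38 and 0.44 with TGFβ. That change of -0.44 stayed below the fold limit (adjusted p = 0.043). All TGFβ arrays lay above the controls in PLC/PRF/5 and below them in SNU-449. The difference between the lines was -2.77 (standard error 0.20, adjusted p = 2.3e-08). Under galunisertib, TGFβ left a change of 0.78 in PLC/PRF/5 (adjusted p = 0.0055), and the value in SNU-449 was 0.02 (adjusted p = 1).

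*HLF*, which encodes a transcription factor of the PAR bZIP family found in liver, was lower with TGFβ in both lines, to unequal extents. In SNU-449 its log2 level went from -0.50, -0.25 and -0.07 to -3.09, -3.12 and -2.84, a 6.70-fold fall (log2 change -2.74, adjusted p = 1.8e-10). It went in PLC/PRF/5 from 2.37, 2.17 and 2.46 to 1.62, 1.57 and 1.69, a log2 change of -0.70 (adjusted p = 0.0041) that was under the fold limit. TGFβ arrays and controls did not overlap in either line. The difference was -2.04 (standard error 0.21, adjusted p = 2.5e-06). The SNU-449 levels under TGFβ lay near the floor, and with normexp background correction, which models signal and background together, the difference was -0.87 and was not called.

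*SKIL*, a feedback inhibitor that binds SMAD proteins, was the marker for which no difference between the lines was called. Its log2 level in PLC/PRF/5 was -0.50, -0.53 and -0.28 without and 1.13, 1.21 and 1.24 with TGFβ, a rise of 1.63 (3.10-fold, adjusted p = 0.00011). In SNU-449 it was -0.77, -0.70 and -0.57 without and 0.18, 0.23 and 0.35 with TGFβ. That change of 0.93 (adjusted p = 0.010) fell just short of the fold limit. The levels with TGFβ were above all controls in both lines. The difference between the lines was -0.70 with a 95% confidence interval of -1.40 to 0.00 (adjusted p = 0.24), an interval that includes a larger rise in PLC/PRF/5 as well as no difference. With galunisertib present, the log2 change of *SKIL* on adding TGFβ was 2.08 in SNU-449 (adjusted p = 2.1e-05) and 0.20 in PLC/PRF/5 (adjusted p = 0.69), while that of galunisertib alone against control was -2.62 and -0.63.

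**Figure D3:**
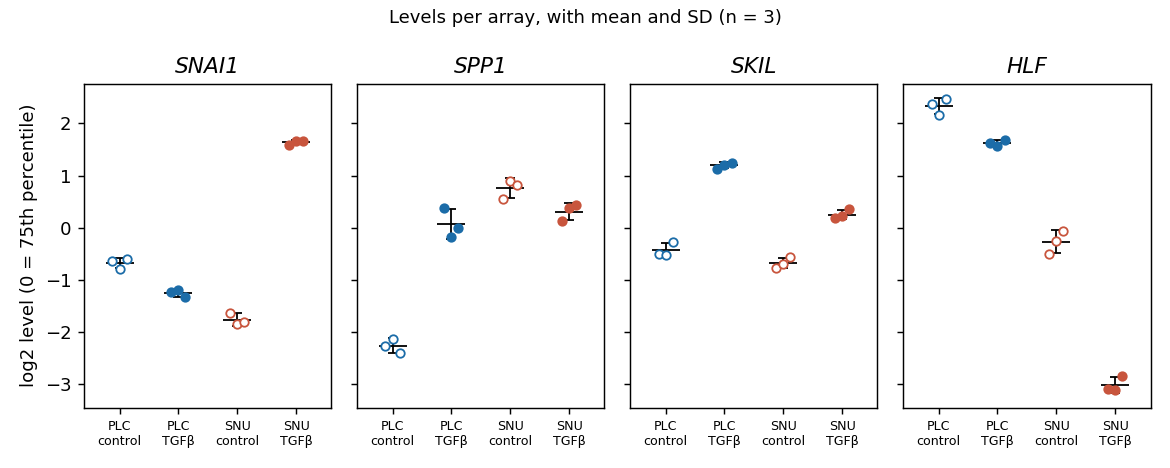
Log2 level relative to the 75th percentile of the array (vertical axis) of *SNAI1*, *SPP1*, *SKIL* and *HLF* in each of 3 control (open) and 3 TGFβ (filled) cultures of PLC/PRF/5 (blue) and SNU-449 (red), with mean and SD. *SNAI1* moved by 3.40 in SNU-449 against -0.57 in PLC/PRF/5, *SPP1* by -0.44 and 2.33, *SKIL* by 0.93 and 1.63, and *HLF* by -2.74 and -0.70.

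Besides *SNAI1*, the largest differences towards SNU-449 among genes measured in both lines were those of *CLEC18B*, *GXYLT2*, *ID1*, *ID3* and *JAG1*. *CLEC18B*, a gene of the C-type lectin family, was at -1.84, -1.48 and -2.41 in SNU-449 control cells and at 2.02, 1.79 and 1.65 with TGFβ, the largest rise of these (3.73). In PLC/PRF/5, where it was at 2.83, 2.78 and 2.79 before and 3.57, 3.12 and 3.14 after, the change was 0.47 (adjusted p = 0.16). TGFβ thus brought its level in SNU-449 (1.82 ± 0.19, SD, n = 3) closer to that of PLC/PRF/5 control cells (2.80 ± 0.03, SD, n = 3). *JAG1*, which encodes a Notch ligand, was at -0.07, 0.60 and 0.47 in SNU-449 control cells and 2.98, 3.10 and 3.11 with TGFβ. In PLC/PRF/5 its groups overlapped (0.84 to 1.28 without and 1.25 to 1.46 with TGFβ), and the difference between the lines was 2.51 (standard error 0.28, adjusted p = 4.8e-06). *GXYLT2*, whose product extends the sugar chains of Notch, rose by 2.55 in SNU-449 and had a change of -0.18 in PLC/PRF/5 (difference 2.73, adjusted p = 1.3e-08).

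The 6 largest differences towards PLC/PRF/5, by contrast, included genes that fell in SNU-449 and genes that rose in PLC/PRF/5. *RIPOR3* fell in SNU-449 from 0.96, 1.49 and 0.90 to -1.16, -1.52 and -1.88, and in PLC/PRF/5 was -2.99, -2.73 and -2.86 before and -1.85, -2.33 and -2.10 after (difference -3.41, standard error 0.50, adjusted p = 0.00014). *TNFSF10*, the gene of the death ligand TRAIL, fell in SNU-449 from -2.63, -2.07 and -0.42 to -4.13, -3.71 and -3.64, the last of which lie at or near the floor. It was high in PLC/PRF/5, at 4.22, 4.37 and 4.56 without and 4.99, 4.66 and 5.01 with TGFβ, and the difference of -2.63 (standard error 0.50) was not called when the spread came from the 12 arrays alone or with a higher floor. The phosphate transporter gene *SLC17A3* fell by 1.77 in SNU-449 and had a change of 0.77 in PLC/PRF/5 (difference -2.54, adjusted p = 4.0e-06). A long noncoding RNA of the LNCipedia collection, measured by probe A_21_P0014296, rose in PLC/PRF/5 from -3.60, -2.61 and -3.05 to 0.36, 0.54 and 0.49 (11.7-fold) and changed by 0.61 in SNU-449, where its groups did not overlap (adjusted p = 0.075). Its other 3 probes gave differences of -1.83, -1.74 and -2.22, against -2.94 for the brightest.

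4 genes were called in both lines with opposite directions, namely *ID1*, *ID3*, *TRIM67* and *SLC17A1*. ID proteins bind basic helix-loop-helix factors and keep them off DNA, and their genes are classical targets of BMP signaling. *ID1* rose in SNU-449 from 1.62, 1.67 and 1.97 to 3.35, 3.47 and 3.58 (3.29-fold) and fell in PLC/PRF/5 from 6.91, 7.07 and 7.16 to 5.93, 6.09 and 6.10 (log2 change -1.0, adjusted p = 4.3e-05). *ID3* rose from 1.15, 1.47 and 1.54 to 2.48, 2.46 and 2.48 in SNU-449 and fell from 4.50, 4.48 and 4.58 to 2.93, 3.06 and 2.97 in PLC/PRF/5. Its spots lie in the outer rows, and the difference was 2.62 (standard error 0.21), beside 2.72 (0.19) for *ID1*, which lies elsewhere. In both genes the line with the lower control level went up and the other went down. *TRIM67*, a tripartite motif gene, rose in PLC/PRF/5 from -2.18, -2.38 and -2.19 to -0.64, -0.34 and -0.49 and fell in SNU-449 from -3.16, -2.39 and -2.41 to -4.13, -3.95 and -4.13. *SLC17A1*, of the same transporter family as *SLC17A3*, rose by 1.04 in PLC/PRF/5 and was at least 2.08-fold lower with TGFβ in SNU-449, where it was not above background on any TGFβ array. With normexp background correction 0 genes met the limits in both lines with opposite directions, and under the other settings 2 to 5 did.

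Some of the largest changes were in genes that only 1 line expressed. In SNU-449, TGFβ raised *NOG*, which encodes the BMP antagonist noggin, from -2.30, -2.31 and -2.03 to 0.14, 0.41 and 0.69, and *LEFTY2*, an antagonist of NODAL, from -2.77, -2.23 and -2.34 to 0.69, 0.41 and 0.69. *LMO1*, a LIM-domain cofactor of transcription, and *ALOX5AP*, needed for leukotriene synthesis, went from near the floor to -1.09 ± 0.08 and -0.87 ± 0.06 (SD, n = 3). In PLC/PRF/5, *ALOX5AP* and *LEFTY2* were not above background on any of the 6 arrays, and *NOG* and *LMO1* were above it on at most 2 of the 3 arrays of a group. Conversely, *SYT12*, of the synaptotagmin family, rose in PLC/PRF/5 from -3.73, -2.77 and -2.82 to -0.31, -0.46 and -0.56, and *SOWAHB* from -4.13, -3.06 and -3.33 to -1.36, -1.35 and -1.43. Both were not above background on any SNU-449 array. *IGFN1* fell in SNU-449 from 3.04, 2.35 and 2.57 to 0.94, 0.34 and 0.17 and was not above background in PLC/PRF/5. In the normalized table of the authors, which has no floor, *LEFTY2*, *SYT12*, *IGFN1* and *SOWAHB* had differences of the same sign that were not called. The same held there for *LRRC32*, *LTBP2*, *ITGB6*, *PTHLH*, *SNAI2*, *EGR2*, *FABP1*, *TNFAIP3* and *FOSB*, all described below.

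Lists of pathway genes were then followed from receptors to targets. Counts in a list are read against 2.29% of all genes called for the difference, and no list is claimed to stand apart. Of 18 tested genes for TGFβ family ligands, receptors and SMADs, 2 (11.1%) had a called difference, both towards SNU-449, with a list median of 0.15 against 0.05 for all genes. *INHBA*, which encodes a subunit of activin, rose in SNU-449 from 0.91, 0.66 and 0.78 to 2.84, 2.88 and 2.91, and *LRRC32*, whose product anchors latent TGFβ at the cell surface, from -2.45, -1.56 and -1.77 to 0.86, 0.88 and 0.77. Both genes were not above background in PLC/PRF/5, on all 6 arrays. Of the binding protein genes, *FSTL3* was called in SNU-449 (1.08) and reached 0.93 in PLC/PRF/5, with a difference of 0.15 (adjusted p = 0.80). *FST* was not above background in SNU-449 control cells, was at least 1.92-fold higher there with TGFβ and had a change of 0.75 in PLC/PRF/5.

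All 10 feedback regulators of the pathway had a higher mean with TGFβ in SNU-449. In PLC/PRF/5 no member was lower, and *LDLRAD4* lay at the floor with and without TGFβ. The list medians were 0.79 (SNU-449) and 0.42 (PLC/PRF/5). 2 of the 10 were called in each line, against 2.51% (SNU-449) and 0.983% (PLC/PRF/5) of all genes. *PMEPA1*, a membrane protein that holds SMAD2 and SMAD3, was called in both. It was at 6.05, 6.17 and 6.17 in SNU-449 control cells and 7.47, 7.50 and 7.60 with TGFβ, and in PLC/PRF/5 it was not above background in control cells and at -1.80, -1.51 and -2.08 with TGFβ, at least 4.34-fold higher. Since the PLC/PRF/5 control level is only a bound, no size of the difference between the lines is given. *LDLRAD4*, another inhibitor of receptor-activated SMADs, was the single member with a called difference (10.0% of the list), as it rose in SNU-449 from -4.13, -3.02 and -2.75 to -0.33, -0.38 and -0.20 and was not above background in PLC/PRF/5. *SMAD7* had values of 0.65 in SNU-449 against 0.80 in PLC/PRF/5 (adjusted p = 0.00079 and 0.00018), below the fold limit in both lines.

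Of 17 tested further TGFβ-responsive genes, 11 were called as higher in SNU-449 (1.51% of all genes) against 1 in PLC/PRF/5 (0.709% of all genes), and 6 (35.3%) had a called difference, all towards SNU-449. *CCN2*, which encodes a matricellular growth factor, was at 2.97, 2.93 and 3.19 in SNU-449 control cells and 4.66, 4.53 and 4.47 with TGFβ. The PLC/PRF/5 values were 2.74, 2.50 and 2.99 without and 1.84, 2.20 and 1.74 with TGFβ, so that the groups separated in opposite directions (difference 2.34, standard error 0.21, adjusted p = 3.9e-07). The type IV collagen gene *COL4A1* rose by 1.45 in SNU-449 and had 0.32 in PLC/PRF/5, a difference of 1.13 that became 0.99, and was not called, without SNU-449 control replicate 1. *LTBP2*, *ITGB6* and *PTHLH*, which encode a latent TGFβ binding protein family member, an integrin subunit and a parathyroid hormone-related protein, rose in SNU-449 by 1.49, 1.22 and 1.38 and were at or near the floor in PLC/PRF/5. The call of *ITGB6* ended without SNU-449 control replicate 2 (1.09). *HEY1*, a repressor also induced by Notch, was the member called in both lines, from -3.78, -3.88 and -3.71 to -1.99, -2.18 and -1.91 in SNU-449 and from -1.82, -1.69 and -1.48 to -0.53, -0.31 and -0.47 in PLC/PRF/5. Among genes called in SNU-449 only, *TGFBI* had changes of 1.58 and 0.73 and a difference of 0.85 (adjusted p = 0.00012), smaller than the fold limit.

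Of 10 tested ID and BMP-responsive genes, 3 (30.0%) had a called difference, *ID1* and *ID3* described above and *BMP4*, which encodes a BMP ligand. *BMP4* fell in SNU-449 from -0.06, 0.37 and 0.27 to -1.18, -0.96 and -1.13, and its groups overlapped in PLC/PRF/5 (1.99 to 2.16 without and 2.14 to 2.25 with TGFβ). *ID4* fell in PLC/PRF/5 by 1.34 (adjusted p = 0.0031), and the difference of 0.90 was not called. The direction of *BMP4* was opposite to that of *ID1* and *ID3*.

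EMT transcription factors, epithelial and mesenchymal genes did not move as 1 block. Of 11 EMT factors, 3 were called as higher in SNU-449 (1.51% of all genes). In PLC/PRF/5, where 0.709% of all genes were called as higher, 0 were called by limma or the ordinary test (2 at an unadjusted p below 0.05). Of the 11 factors, 2 (18.2%) had a called difference. *SNAI2* rose in SNU-449 from -1.23, -0.92 and -0.61 to -0.03, 0.23 and 0.24, was not above background in PLC/PRF/5, and lost the call for the difference without SNU-449 control replicate 1 (0.91 in place of 1.06). Of 19 epithelial genes, 2 (10.5%) had a called difference, both towards PLC/PRF/5. *CDH1*, the gene of E-cadherin, fell in SNU-449 from -1.98, -1.06 and -1.29 to -3.47, -3.52 and -3.33 and had overlapping groups in PLC/PRF/5 (2.13 to 2.53 without and 2.45 to 2.59 with TGFβ), a difference of -2.22 (standard error 0.28, adjusted p = 2.6e-05). *ELF3*, an epithelial ETS factor, fell by 1.01 in SNU-449 and had 0.14 in PLC/PRF/5, and its difference of -1.14 became -1.0, and was not called, without SNU-449 control replicate 2. The tight junction gene *CLDN4* went against these, as it was at least 2.81-fold higher with TGFβ in SNU-449. Of 23 mesenchymal and matrix genes, 0 were called in either line or for the difference by limma, with list medians of 0.45 (SNU-449) and 0.00 (PLC/PRF/5). Only 11 of the 23 were measured in both lines, and a gene at the floor on all arrays of a line has a change of 0 there. The median difference was 0.42 over the list and 0.13 over these 11. At an unadjusted p below 0.05 without a fold limit, 14 of the 23 (SNU-449), 6 (PLC/PRF/5) and 13 (difference) passed. The ordinary test called 0 in either line. Within that list *LOX* and *COL1A1* had values of 0.97 and 0.92 in SNU-449 and *VIM* one of -0.33, all below the fold limit.

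Liver genes were followed next. Of 15 liver-enriched transcription factors, 1 (6.67%) had a called difference. This was *ONECUT1*, a homeobox factor of hepatocyte differentiation, which fell in SNU-449 from 0.21, -0.57 and -0.17 to -1.84, -1.65 and -1.87. Its level stayed high in PLC/PRF/5, at 4.71, 4.72 and 4.69 without and 5.15, 4.87 and 4.92 with TGFβ, and the difference was -1.88 (standard error 0.20, adjusted p = 3.1e-06). Of 26 hepatocyte genes, 2 (7.69%) had a called difference. *BAAT*, of bile acid conjugation, was at -3.21, -2.89 and -3.0 in SNU-449 control cells and not above background with TGFβ, at least 2.14-fold lower. *FABP1*, the liver fatty acid binding protein gene, fell in PLC/PRF/5 from 5.62, 5.91 and 6.17 to 5.00, 4.69 and 4.95 and was not above background in SNU-449. Its call was lost without PLC/PRF/5 control replicate 3 (0.89) or PLC/PRF/5 TGFβ replicate 2 (0.93) and under 7 other settings. *HLF* was the single call (5.88%) among 17 PAR bZIP and clock genes, and *SPP1* the single call (8.33%) among 12 genes of osteopontin, CD44 and integrins.

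Immediate early and NF-κB-responsive genes had called differences in opposite directions. Of 13 AP-1 and immediate early genes, 4 (30.8%) had a called difference, all towards SNU-449. *FOSB* rose in SNU-449 by 1.72 and *EGR2* was at least 2.09-fold higher there, while *EGR1* fell in PLC/PRF/5 from 2.64, 2.51 and 2.80 to 1.36, 1.54 and 1.45 and its groups overlapped in SNU-449. The spots of *EGR2* lie in the outer rows, and its call ended without SNU-449 TGFβ replicate 3 (0.97). *ATF3* rose in SNU-449 by 1.41 on its brightest probe, and its other 3 probes gave 0.12, -0.13 and 0.05. Of 20 NF-κB-responsive genes, 4 had a called difference, all towards PLC/PRF/5. *TNFAIP2* was at 1.64, 1.70 and 1.81 in PLC/PRF/5 control cells and 2.83, 2.84 and 2.84 with TGFβ, and at 5.74, 5.83 and 5.89 without and 5.13, 5.15 and 5.29 with TGFβ in SNU-449 (difference -1.75, standard error 0.15, adjusted p = 1.3e-07). *TNFAIP3*, a feedback inhibitor of NF-κB, rose by 1.01 in PLC/PRF/5, *TRAF1*, an adaptor of TNF receptors, fell by 1.12 in SNU-449, and *BIRC3*, an inhibitor of apoptosis with spots in the outer rows, had 0.60 and -0.75 in the 2 lines and passed for the difference alone (-1.35). The differences of *FOSB*, *PTHLH*, *TNFAIP3*, *TRAF1*, *BAAT* and *EGR2*, all near background in a line, were not called with normexp background correction. Of 19 cell cycle and growth arrest genes, 0 were called in either line or for the difference by limma. At an unadjusted p below 0.05, 3 (SNU-449), 7 (PLC/PRF/5) and 8 (difference) passed. The ordinary test called 0 in either line, and the values of *MYC* were -0.33 (SNU-449) and -0.78 (PLC/PRF/5).

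**Figure D4:**
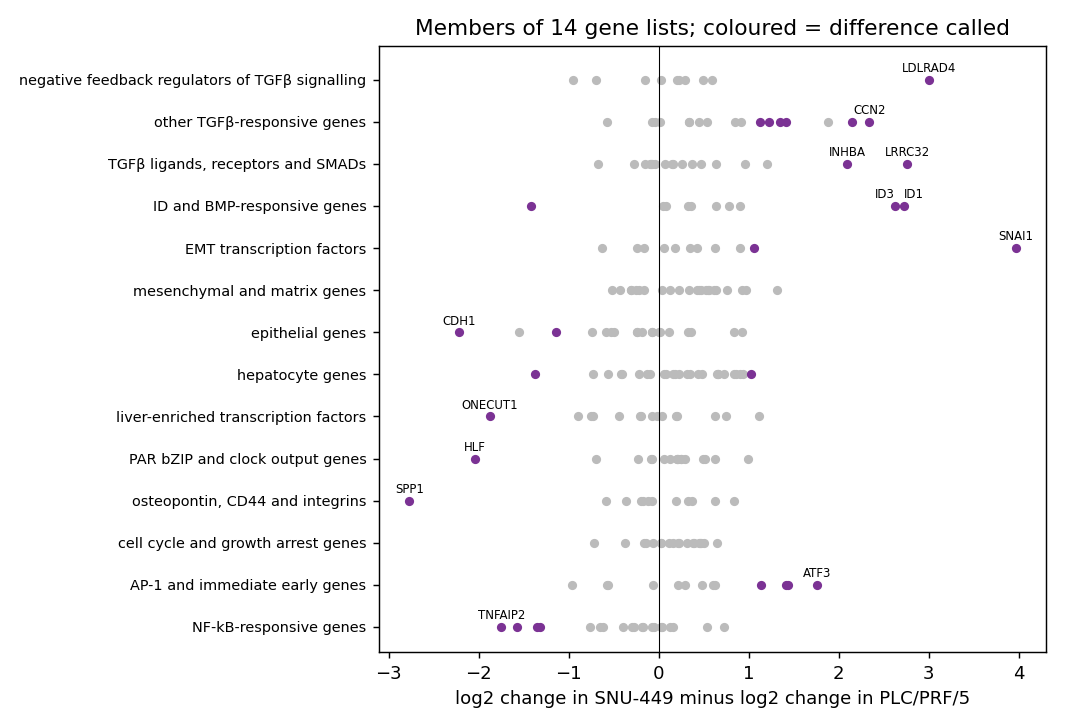
Log2 change in SNU-449 minus log2 change in PLC/PRF/5 (horizontal axis) for the tested members of 14 gene lists (rows), 1 point a gene; purple points have a called difference. Called TGFβ-responsive genes, such as *CCN2*, and immediate early genes lie to the right, and called NF-κB-responsive genes such as *TNFAIP2* (-1.75) to the left.

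The other question was which genes TGFβ changed in both lines. Of 14630 genes measured in both, 36 (0.246%) were called in both lines in the same direction, 28 higher and 8 lower. They made up 11.8% of the SNU-449 calls and 29.0% of the PLC/PRF/5 calls among genes measured in both. For 18 of the 36, 13 higher and 5 lower, the 95% confidence interval of the difference lay within 1 log2 unit of 0, and they are called alike here. Such an interval can still exclude 0, as for *SPSB1* (0.50 to 0.97), *HEY1* (0.19 to 0.89) and *LOXL4* (-0.85 to -0.14). Of the 36, 5 had a limma adjusted p below 0.05 for the difference, *SPSB1* among them (0.00022). Over all 17902 genes tested, 1543 had one. For 1 of the 18, *KPNA7*, a group was not above background, so that its interval rests on the floor and does not bear on likeness. The interval of *SYT13*, also among the 18, rests on the floor in part. Its PLC/PRF/5 controls (-4.13, -4.13 and -3.52) were above background on 1 of 3 arrays. Over all genes measured in both the interval lay within that range for 10675 (73.0%), most of which changed in neither line. Of the 36 genes 7 lay in the outer rows, and 29 (24 higher and 5 lower, 17 of them alike) did not. A call in a line was lost when 1 array was left out for 12 of the 36.

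By the smaller of their changes in the 2 lines, *LOC729080*, *AKAP8* and *KRTAP10-10* came first, and the spots of all 3 lie in the outer rows. *AKAP8* was at -0.19, 0.02 and 0.29 without and 2.75, 2.72 and 2.76 with TGFβ in PLC/PRF/5, and at -0.02, -0.41 and -1.35 without and 2.09, 2.05 and 2.00 with TGFβ in SNU-449. With galunisertib present, TGFβ arrays were higher by 2.72 and 5.07. For *LOC729080* the changes were 3.01 and 3.11 without and 3.07 and 3.98 with galunisertib, and for *KRTAP10-10* 2.37 and 3.16 without and 1.72 and 1.81 with it. The other *KRTAP10-10* probe gave 0.75 in PLC/PRF/5 and 0.57 in SNU-449. *FAM229A*, which came first by the same measure among the outer genes that were lower, had -1.61 and -1.47 without and -1.63 and -0.72 with galunisertib. Its call was lost without PLC/PRF/5 control replicate 1 (-1.16) or without one of 3 SNU-449 arrays (-1.28 to -1.47). Of the 7 outer genes 5 were called under galunisertib for SNU-449 and 5 for PLC/PRF/5, and of the 29 others 4 and 0. The part of the slide row in the values of the outer genes was not tested.

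Away from the outer rows, *FURIN* came first by the smaller of its 2 changes. Its product is a protease that cleaves precursor proteins, the TGFβ1 precursor among them. Its log2 level was 0.12, 0.09 and 0.12 in PLC/PRF/5 control cells and 1.84, 1.87 and 1.94 with TGFβ, and -2.43, -2.84 and -2.70 in SNU-449 control cells and -0.71, -0.77 and -0.52 with TGFβ. The changes were 1.77 and 1.99 (adjusted p = 5.4e-09 and 4.2e-10), and their difference was 0.22 with a 95% confidence interval of -0.13 to 0.56, although the control levels of the lines lay 2.77 apart. With normexp background correction its SNU-449 change was 0.93 and not called. Under galunisertib the changes were -0.13 and 0.48. *SYT13*, of the synaptotagmin family, and *KPNA7*, of the importin alpha family, were also called in both lines. *SYT13* went from -4.13, -4.13 and -3.52 to -2.47, -2.48 and -2.52 in PLC/PRF/5 and from -0.98, -0.29 and -0.39 to 0.87, 1.32 and 1.30 in SNU-449. *KPNA7* went from -2.41, -1.94 and -2.08 to -0.17, -0.37 and -0.29 in PLC/PRF/5 and in SNU-449, where it was not above background in control cells, was at least 2.71-fold higher. Its other probe gave 1.89 in PLC/PRF/5 and 0.97 in SNU-449 (difference -0.92). With normexp background correction the changes of *SYT13* in PLC/PRF/5 (0.27) and of *KPNA7* in SNU-449 (0.46) were not called.

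*BMF*, which encodes a pro-apoptotic BH3-only protein, rose in PLC/PRF/5 from -0.05, 0.21 and 0.24 to 2.42, 2.23 and 2.35 and in SNU-449 from 1.83, 2.08 and 2.16 to 3.45, 3.35 and 3.49. All arrays with TGFβ lay above all controls in each line. The difference of -0.79 (95% confidence interval -1.31 to -0.27, adjusted p = 0.054) was not called. *PHF21B* rose by 1.54 and 1.83 on its brightest probe, while its other probe, not above background in SNU-449, gave -0.36 in PLC/PRF/5. 2 genes called in both lines in the same direction also had a called difference, *LBH* and *RASGRP3*. *LBH*, a regulator of transcription, was not above background in PLC/PRF/5 control cells and at -1.04, -0.54 and -0.91 with TGFβ, at least 8.47-fold higher, while in SNU-449 it rose 2.89-fold from -0.67, -0.20 and -0.18 to 1.16, 1.17 and 1.20. Its difference of -1.77, which rests on the floor in PLC/PRF/5, became -0.18 with normexp background correction and was -0.23 on its other probe. *RASGRP3*, an activator of RAS proteins, had a rise of 3.27 in SNU-449 against 1.06 in PLC/PRF/5 (difference 2.21, adjusted p = 7.8e-05), and its PLC/PRF/5 call was lost without control or TGFβ replicate 1 of that line (0.84 and 0.92).

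Among the other shared genes, *NUAK1*, a kinase of the AMPK family, was at 4.10 ± 0.08 in PLC/PRF/5 and 3.89 ± 0.07 in SNU-449 (SD, n = 3) without TGFβ and at 5.35 ± 0.03 and 5.26 ± 0.02 with it, a difference between the lines of 0.12 with a 95% confidence interval of -0.16 to 0.40. Its second probe gave 1.37 in PLC/PRF/5 and 0.76 in SNU-449. The protease inhibitor gene *SERPINE2* rose by 1.42 and 1.23 (difference -0.19, interval -0.48 to 0.10). *SPSB1*, whose product targets the type II TGFβ receptor for degradation, rose by 1.14 and 1.87 (difference 0.73, interval 0.50 to 0.97). The lysyl oxidase family gene *LOXL4* rose by 1.50 and 1.01, the latter below the limit without SNU-449 control replicate 1 (0.88) or SNU-449 TGFβ replicate 1 (0.99). The 5 shared genes that were lower and lie outside the outer rows were *SPRY1*, *MAP2K6*, *FGFBP3*, *CCAT1* and *RAB27B*, with changes between -1.28 and -1.01. *SPRY1*, an inhibitor of receptor tyrosine kinase signaling, went from 3.92, 3.90 and 3.87 to 2.81, 3.00 and 2.82 in PLC/PRF/5 and from -0.03, -0.43 and -0.34 to -1.40, -1.47 and -1.77 in SNU-449. Its other probe gave -0.88 and -2.0, a difference of -1.12. The other *RAB27B* probe gave -0.37 in PLC/PRF/5, where it was above background on at most 1 of the 3 arrays of a group, against -1.20 in SNU-449. Calls of *SPRY1*, *MAP2K6*, *CCAT1* and *RAB27B* in a line were each lost when an array was left out, with values between -0.88 and -0.99.

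**Figure D5:**
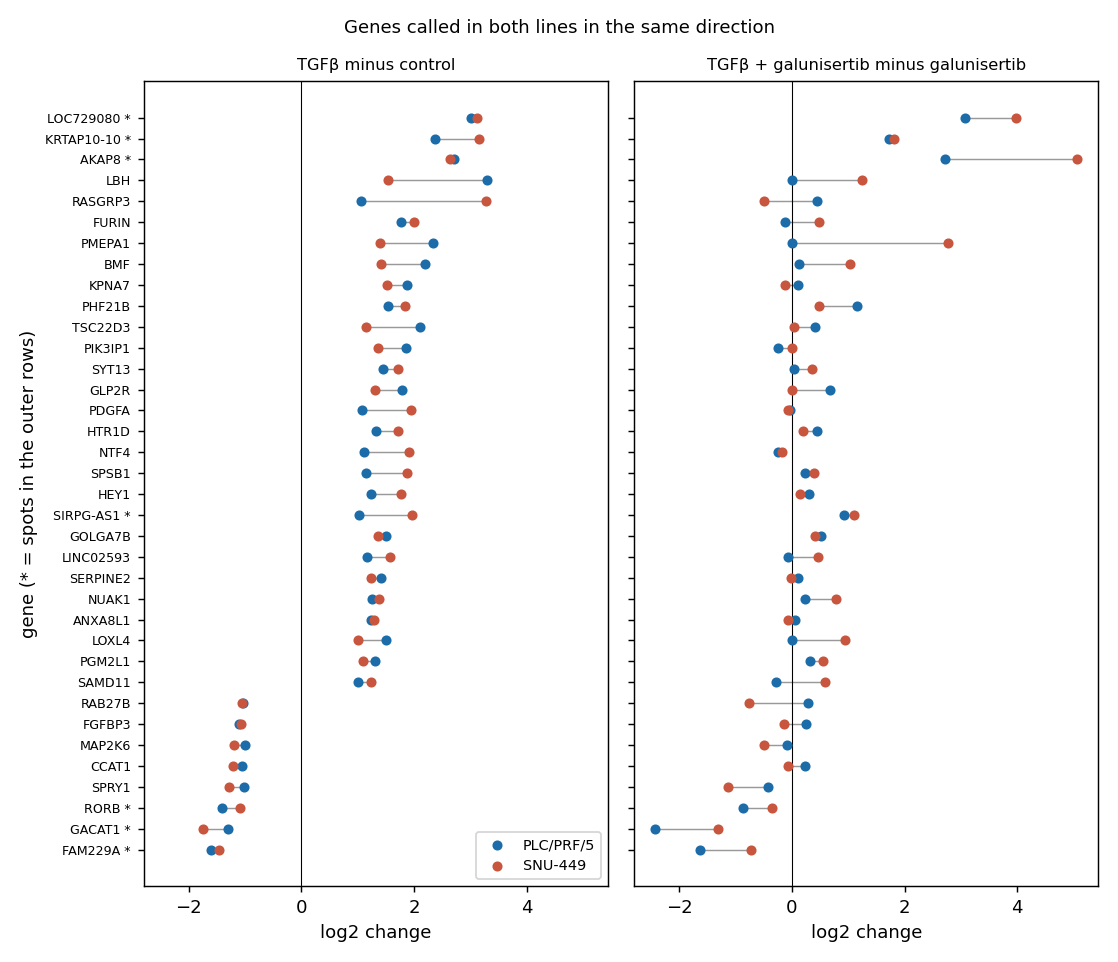
Log2 change (horizontal axes) in PLC/PRF/5 (blue) and SNU-449 (red) for the 36 genes called in both lines in the same direction, on adding TGFβ alone (left) and in the presence of galunisertib (right); asterisks mark 7 genes in the outer rows. For the 29 genes without an asterisk the median size was 1.37 (SNU-449) and 1.30 (PLC/PRF/5) on the left, and the median change in the same direction was 0.40 and 0.09 on the right.

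The change that TGFβ made in the presence of galunisertib was no part of the limits for a call and came from other cultures, although those arrays entered the estimate of the spread. With the 12 control and TGFβ arrays alone, 421 genes were called for the difference, 376 of them among the 410, and 49 in both lines in the same direction. Values without galunisertib were those that chose the genes, so the 2 are set side by side with no test. Over the 229 genes with a called difference and measured in both lines, the median size of the TGFβ change was 1.05 for SNU-449 and 0.46 for PLC/PRF/5 without galunisertib, and 0.25 and 0.18 with it. Over all genes, TGFβ in the presence of galunisertib called 189 (1.06%) for SNU-449 and 37 (0.207%) for PLC/PRF/5. In the 29 shared genes outside the outer rows the median change in the direction of the call was 0.40 for SNU-449 and 0.09 for PLC/PRF/5. *PMEPA1*, like *SKIL*, had a larger change in SNU-449 under galunisertib (2.77) than without it (1.39). Galunisertib alone against control gave it a change of -3.50 there. Whether this bears on the larger change was not tested. In PLC/PRF/5 *PMEPA1* was at the floor with galunisertib, with and without TGFβ.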

How the data were processed

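RNA of 2 HCC lines was measured on 24 one-colour Agilent arrays, in 8 groups of 3 independent cultures named from the sample labels. The authors deposited the scanner output of Agilent Feature Extraction 10.7.3.1, whose processed signal is an intensity after background subtraction, with no scaling across arrays. A series table of normalized log2 values, also deposited by the authors, is centred on the median of each probe and served as an alternative. No column was left without a sample (0).

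Control and outlier spots were left out (111 to 216 outlier spots per array, 0 saturated), spots of 1 probe were averaged, and intensities were divided by the 75th percentile of the array, raised to a floor of 5.701% of it, which is the weakest signal well above background (median of the arrays), and converted to log2. The floor shrinks changes of dim genes. For a gene above background on no array of 1 of the groups compared, a bound is given, with the dim group set to the higher of its own and the weakest detected signal of each array. Of 58201 probes, 31104 were named through RefSeq accessions and 10719 by LNCipedia. The 29304 probes well above background on all arrays of at least 1 group were tested, with the brightest probe standing for a gene.

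limma 3.58.1 in R 4.3.3 was fitted over all 24 arrays, with the interaction as a contrast. Here limma took the place of the random-variance t-test of the methods. Files gave no mean signal, so normexp background correction, with an offset of 50, used median signals. The fit was tested on simulated data. The replicate number is the slide, and same-numbered samples deviated together (correlations 0.12 to 0.29), so numbers were taken as pairing samples.

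Named genes were the 4 marker genes, the 6 largest differences in each direction among called genes measured in both lines, the 4 largest each way among genes at background in a line, the 10 genes with the largest change common to both lines, those called in opposite directions, and list members called for the difference or in both lines. The members, 15 gene lists and tests were chosen with earlier results of these data known. Other named genes (*RASGRP3*, *NUAK1*, *SERPINE2*, *SPSB1*, *LOXL4*, *SPRY1*, *MAP2K6*, *FGFBP3*, *CCAT1*, *RAB27B*, *SMAD7*, *FST*, *FSTL3*, *TGFBI*, *ID4*, *CLDN4*, *LOX*, *COL1A1*, *VIM*, *MYC*) were picked after their values were seen. Some genes are not reported here. The comparison without outer-row genes was added after seeing the data.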

Additional observations from a re-analysis of the deposited data

Results flagged for a closer look

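The limma interaction test of the difference between the lines called 410 genes, of which 229 were measured in both lines, and most of the genes named above are among them. For the 181 others the value is in the main the change in the line that expressed the gene. Towards SNU-449, the log2 differences were, in falling order, those of *SNAI1* (3.97), *CLEC18B* (3.26), *NOG* (3.26), *LMO1* (3.19), *ALOX5AP* (3.12), *LEFTY2* (3.04), *LDLRAD4* (3.00), *LRRC32* (2.76), *GXYLT2* (2.73), *ID1* (2.72), *ID3* (2.62), *JAG1* (2.51), *CCN2* (2.34), *RASGRP3* (2.21), *INHBA* (2.09), *ATF3* (1.76), *EGR1* (1.43), *FOSB* (1.41), *LTBP2* (1.41), *PTHLH* (1.35), *ITGB6* (1.22), *EGR2* (1.14), *COL4A1* (1.13), *SNAI2* (1.06) and *FABP1* (1.02). Towards PLC/PRF/5 they were those of *RIPOR3* (-3.41), *TRIM67* (-3.18), the noncoding RNA of probe A_21_P0014296 (-2.94), *SPP1* (-2.77), *SYT12* (-2.66), *TNFSF10* (-2.63), *SLC17A3* (-2.54), *CDH1* (-2.22), *IGFN1* (-2.17), *SOWAHB* (-2.12), *SLC17A1* (-2.09), *HLF* (-2.04), *ONECUT1* (-1.88), *LBH* (-1.77), *TNFAIP2* (-1.75), *TRAF1* (-1.58), *BMP4* (-1.42), *BAAT* (-1.37), *BIRC3* (-1.35), *TNFAIP3* (-1.32) and *ELF3* (-1.14). Groups of 3 cultures are too small to look for single arrays that stand apart.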

How the results depend on the processing

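Of 3276 recomputed values of single genes, 0 reversed their direction, 3042 kept their side of the limits and 234 lost it. With normexp background correction, the calls fell from 410 to 197 for the difference between the lines (58.4% towards SNU-449 against 45.4%), from 450 to 232 in SNU-449, from 176 to 89 in PLC/PRF/5, from 36 to 21 for genes called in both (10 of the 36 among them) and from 18 to 11 for genes changed alike, and the difference of *HLF* was -0.87 and not called. With probes well above background on all 12 arrays (13589 genes), the first 4 counts were 185, 233, 94 and 23. By the ordinary t-test, which is not the random-variance test of the methods, 256 genes were called in SNU-449, 106 in PLC/PRF/5, 14 in both and 8 as alike, and 355 and 164 within the lines and 438 for the difference with Benjamini-Hochberg adjustment. Without scaling, PLC/PRF/5 had 274 calls, at median changes over all genes of 0.20 there and 0.12 in SNU-449, against -0.02 and 0.00 with scaling. The cause of these shifts was not tested. With 1 array left out, the counts were 375 to 429 for the difference, 420 to 489 in SNU-449, 161 to 187 in PLC/PRF/5, 30 to 38 in both and 14 to 19 alike, and the differences of *SNAI1*, *SPP1*, *SKIL* and *HLF* were 3.93 to 4.04, -2.90 to -2.62, -0.78 to -0.64 and -2.15 to -1.94. With the replicate block, which keeps the pairing by slide, 408 genes were called for the difference, 403 of them shared with the fit without it, and among the named differences and the 36 shared genes the block changed no other call than that of *RORB* in SNU-449, which was lost (-1.10). Other scalings, floors, the authors' table and outer rows left out kept each count within 1.5 times its value. Genes near background are the least certain, since values at the floor have no order.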
